A study of Mus musculus with 8 samples.

Results

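The genes described here are 30 enzymes and carriers of mitochondrial fatty acid oxidation and ketone body use, out of 25050 genes measured in mouse mammary epithelial cells at lactation day 4 and at pregnancy day 14. They were taken by gene symbol from the deposited array table, all 30 had at least 1 probe set, and no filter on low values was applied. The only member with more than 1 probe set was Hadhb, for which the brighter of 2 was used. The cells came from wild-type female mice of the FVB strain at their first parity, and adipocytes were depleted from the digested gland before RNA was taken. There were 4 arrays of lactation day 4, called secretory activation in the labels, and 4 arrays of pregnancy day 14, called secretory differentiation. All 8 samples shared strain, parity and cell preparation, and neither stage received a treatment. The labels do not say whether each array came from a separate mother, so the p-values speak only of the spread among these samples, and that spread may be technical.

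In mitochondrial fatty acid oxidation, a fatty acid is bound to carnitine at the outer membrane, carried across the inner membrane and returned to coenzyme A. A repeated cycle of dehydrogenation, hydration, a further dehydrogenation and thiolysis then shortens it, and the electrons pass through a flavoprotein to the respiratory chain. Ketone bodies, made in the liver, are turned back to acetyl-CoA by a short mitochondrial pathway in the tissues that use them. The lactating mammary gland is known for making and exporting fat, and malonyl-CoA, the building block of new fatty acids, also blocks the carnitine step.

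Most of the oxidation genes fell at lactation day 4, and a smaller set rose. Of the 30 members 16 were lower and 6 higher in limma at an adjusted p under 0.05, while 8 did not pass. The 22 that passed in either direction compare with 25.8% of all genes. The share that fell was 53.3%, where 16.1% of all 25050 genes were lower, and the share that rose was 20%, where 9.73% of all genes were higher. The share that rose depends on the scaling and is not read as an excess: with arrays centred on reference genes 9 members (30%) and 49.8% of all genes were higher, and centred on a list of mitochondrial mass genes 8 members (26.7%) and 33.1% of all genes. The share that fell was 50% of members and 8.64% of all genes with arrays centred on reference genes, and 53.3% of members and 10.1% of all genes on the mitochondrial list. The median log2 difference of the members was -0.40, beside 0.01 over all genes. With the dimmest 40% of genes left out, 28.1% of the remaining 15030 genes were lower and 12.9% higher, and their median log2 difference was -0.105. These figures are relevant because 28 of the 30 members were brighter than the median gene. Falls of at least 2-fold were found in 6 members (1.71% of all genes) and rises of at least 2-fold in 3 (1.58% of all genes). The genes that fell were found at each step from carnitine entry to electron transfer, though not every gene of a step fell. Those that rose were the ketone body enzymes Oxct1 and Bdh1, the branched-chain dehydrogenases Acadsb and Acad8, the hydratase Echs1, which serves fatty acid and valine breakdown, and Acad10.

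**Figure D1:**
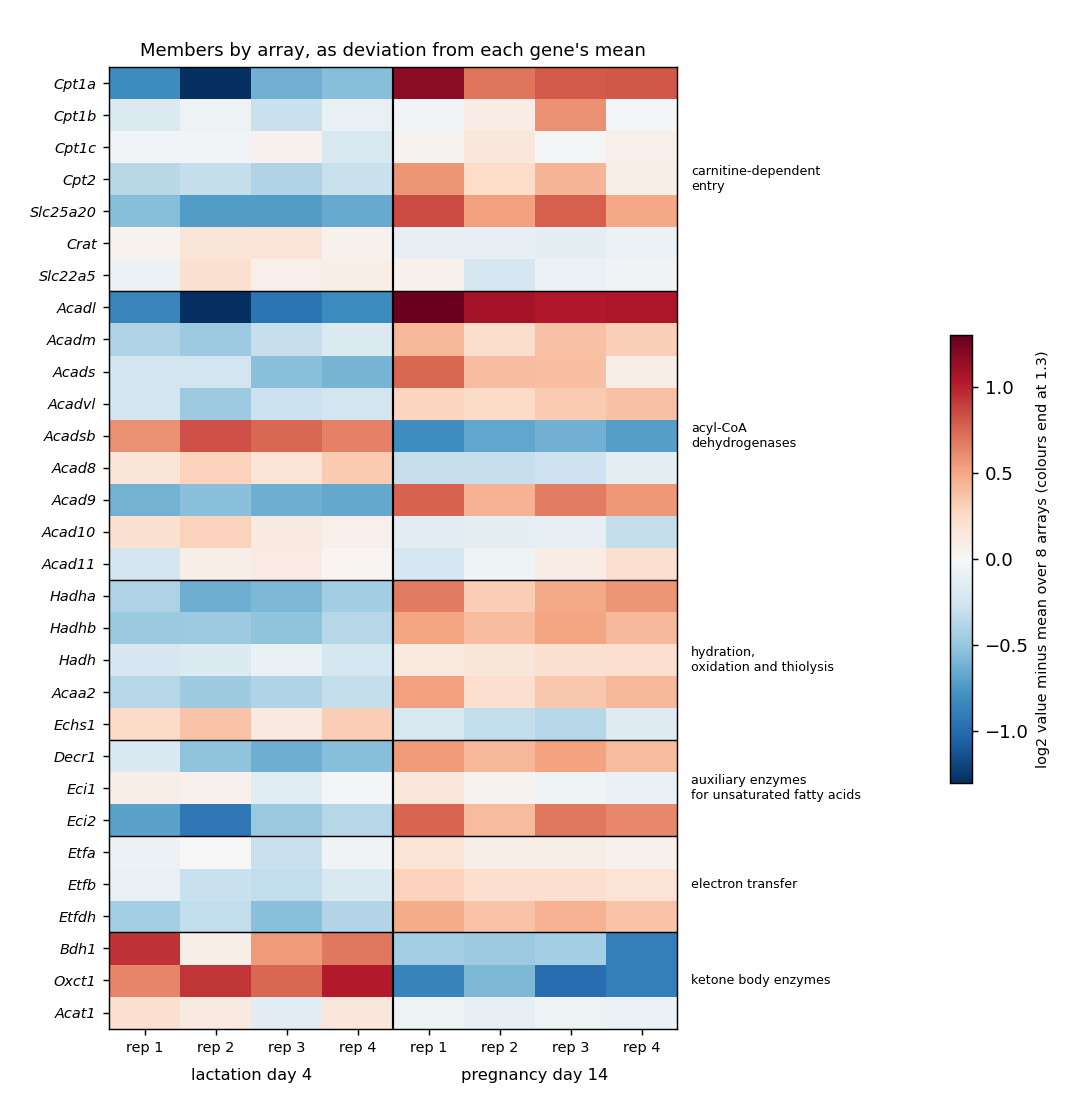
Log2 value of each of the 30 members (rows, by role) on each array (columns, lactation day 4 left and pregnancy day 14 right), minus that gene's mean over the 8 arrays. Blue is below and red above the gene's mean; 18 members were lower on all 4 lactation arrays than on any pregnancy array and 7 were higher.

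The arrays of the 2 stages did not overlap in 25 members, 18 lower in lactation (60%, beside 17.4% of all genes) and 7 higher (23.3%, beside 12.1%). Among these 25 were all 22 members that passed the test and 3 that did not, Cpt1b, Etfa and Crat. The size of the differences that passed ran upward from 0.33 on the log2 scale, and the largest that did not pass was 0.32. Within pregnancy, replicate 1 had the highest value in 13 of the 16 members that fell, and no lactation array stood out in that way, the most being 7 of 16 for replicate 4. Without pregnancy replicate 1 the counts were again 16 lower and 6 higher.

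Over all genes, which are not independent of each other, pairs of lactation arrays correlated at 0.9865 to 0.9925, pairs of pregnancy arrays at 0.9898 to 0.9951, and pairs from different stages at 0.9644 to 0.9777. Epithelial markers were bright at both stages. Epcam, an epithelial adhesion protein, averaged 9.89 ± 0.12 in lactation and 10 ± 0.12 in pregnancy (log2 value, SD, n = 4 each), and Csn2, beta-casein, averaged 12.72 ± 0.07 in lactation and 12.36 ± 0.05 in pregnancy. The keratins Krt8 and Krt18 fell by 0.96 and 1.03 on the log2 scale (limma adjusted p = 0.000134 and 0.000613). How calls divide between directions over all genes depends on the scaling: lower genes were 62.3% of calls, but 47.1% with arrays centred on their median, 33.3% when centred on the brighter 60% of genes, 23.4% when centred on a list of mitochondrial mass genes and 14.8% when centred on reference genes.

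Markers of several other cell types also differed between the stages. Their counts are to be set beside 16.1% of all genes lower and 9.73% higher, or 28.1% and 12.9% without the dimmest 40%. The B and plasma cell count was near the share of 16.1%, and its sums overlapped between the stages. Fibroblast markers were lower in 10 of 14, T cell markers in 10 of 14, macrophage markers in 5 of 14, red blood cell markers in 5 of 8 and B and plasma cell markers in 2 of 12, with none higher in these 5 lists. Summed on the linear scale per array, fibroblast markers came to between 1840 and 4098 in lactation and between 4389 and 6852 in pregnancy, and T cell markers to between 382 and 636 in lactation and between 681 and 2035 in pregnancy. Macrophage sums lay between 1074 and 2441 in lactation and between 2758 and 3751 in pregnancy, red blood cell sums between 4983 and 7562 in lactation and between 8179 and 13204 in pregnancy, and B and plasma cell sums between 375 and 710 in lactation and between 554 and 1207 in pregnancy. White adipocyte markers were higher in 4 of 14 and lower in none, with sums of 8922 to 10175 in lactation and 4489 to 7148 in pregnancy. Brown adipocyte markers were higher in 4 of 10 and lower in none, with sums of 4292 to 4725 in lactation and 2344 to 2918 in pregnancy. Fabp3, which mammary epithelium itself makes, is among the brown adipocyte markers, and the epithelium also makes Lpl and Cd36 of the white adipocyte list. The other markers called higher in the white list were Lep and Adig, by 1.18 and 0.95 on the log2 scale. In the brown list they were Otop1, Cox7a1 and Kng2, by 1.36, 0.34 and 0.25. Bright genes weigh most in linear sums, and Fabp3 averaged 11.98, Lpl 11.5 and Cd36 11.55 on the log2 scale in lactation. In the white list 10 of 14 markers and in the brown list 6 of 10 did not pass, with list medians of 0.2 and 0.15. Among 12 skeletal muscle markers 1 was lower, none of 14 endothelial markers passed, and basal markers were lower in 1 and higher in 1 of 12, with sums of 321 to 419, 2131 to 5630 and 5515 to 10409 in lactation against 331 to 371, 2916 to 5137 and 7288 to 8267 in pregnancy. Luminal and alveolar markers were lower in 4 and higher in 6 of 14, with sums of 35767 to 38704 in lactation and 27694 to 30933 in pregnancy. Array values have no zero, and the lowest values in these lists lay between 3.26 and 7.65 on the log2 scale. The part of these cells in the results below was not tested, and in such bulk samples fewer cells of a type and less RNA per cell cannot be told apart.

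Transcripts of the carnitine-dependent entry steps were lower or did not pass the test. Of 7 genes of carnitine-dependent entry, 3 fell and none rose, with a median log2 difference of -0.32. Beside this count and those of the member groups below stand 16.1% of all genes lower and 9.73% higher. With the dimmest 40% of genes left out these shares were 28.1% and 12.9%. Cpt1a encodes the liver-type carnitine palmitoyltransferase of the outer membrane, the step that malonyl-CoA blocks. Its log2 values were 6.84, 6.19, 7.04 and 7.11 on the lactation arrays, against 8.83, 8.36, 8.46 and 8.47 on the pregnancy arrays. Every lactation array lay more than a log2 unit below every pregnancy array, and lactation replicate 2 was the lowest. The log2 difference was -1.74 (SE 0.194, limma adjusted p = 0.000222), a level 3.33-fold lower in lactation. Slc25a20, the carrier that exchanges acylcarnitine for carnitine across the inner membrane, had log2 values of 6.31, 6.14, 6.14 and 6.21 in lactation, against 7.71, 7.40, 7.64 and 7.37 in pregnancy. The lactation arrays lay close together, and the groups were well apart, with a log2 difference of -1.33 (SE 0.104, limma adjusted p = 2.7e-05). Cpt2, which returns the acyl group to coenzyme A inside, fell to 7.75, 7.80, 7.72 and 7.82 in lactation, against 8.68, 8.35, 8.55 and 8.20 in pregnancy. Its difference of -0.67 on the log2 scale (limma adjusted p = 0.00172) was the smallest of the 3 that fell.

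The other carnitine genes did not pass the test. Cpt1b, the muscle-type isoform, was dim, at 4.80 to 5.02 in lactation and 5.05 to 5.68 in pregnancy (log2 difference -0.32, 95% interval -0.62 to -0.01, limma adjusted p = 0.114). Its highest pregnancy value came from replicate 3. Cpt1c, the isoform of neurons, was at 5.12 to 5.38 in lactation and 5.30 to 5.47 in pregnancy, overlapping ranges. Crat, which makes acetylcarnitine, had 8.41, 8.52, 8.53 and 8.42 in lactation against 8.26, 8.26, 8.24 and 8.29 in pregnancy, a log2 difference of 0.21 just short of the threshold (limma adjusted p = 0.0547). It passed as higher under 8 of 20 alternatives. Slc22a5, the carnitine importer of the plasma membrane, ranged from 6.78 to 7.05 in lactation and from 6.64 to 6.91 in pregnancy, with a log2 difference of 0.14 (95% interval -0.07 to 0.35), and passed under 2 of 20.

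**Figure D2:**
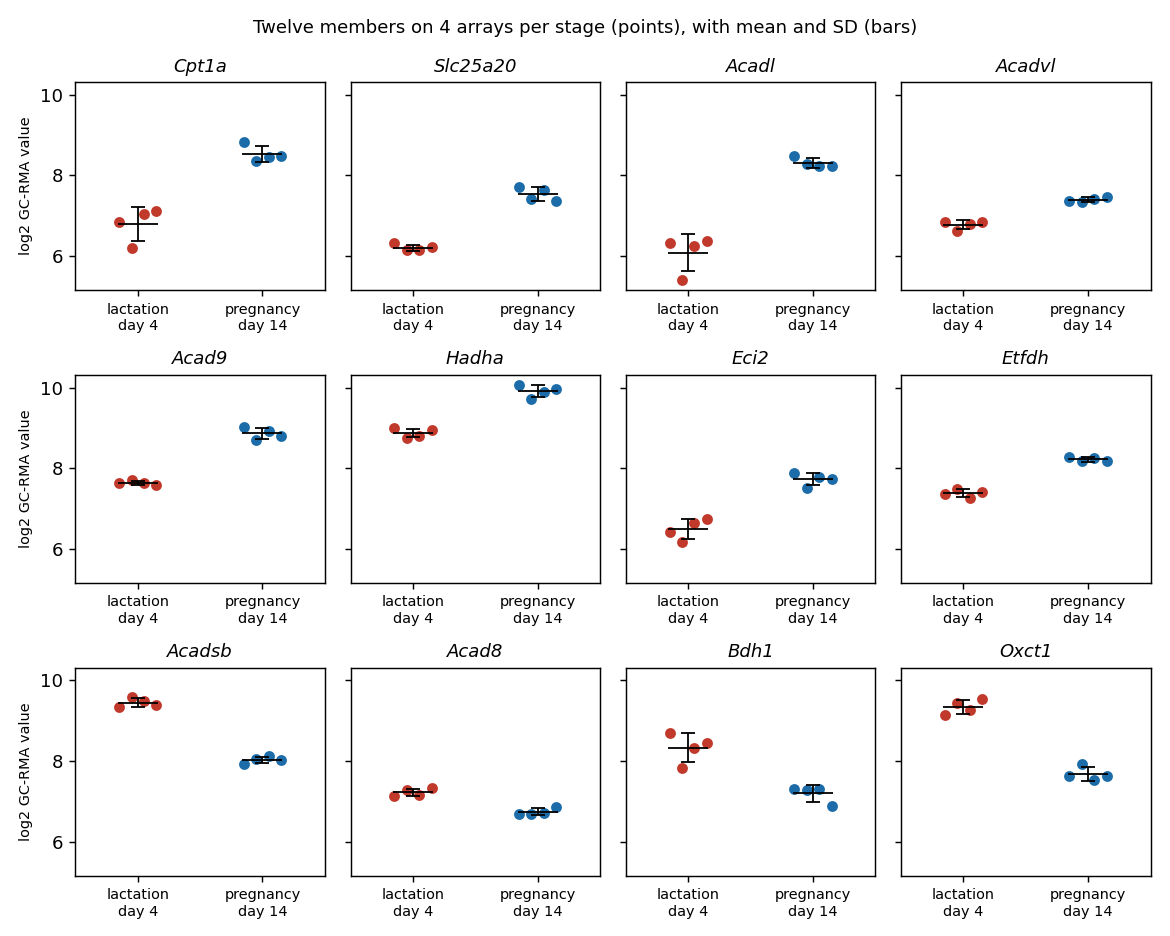
Log2 GC-RMA value (y axis) of 12 members on each of the 4 lactation day 4 arrays (red, left) and 4 pregnancy day 14 arrays (blue, right), with the mean and SD in black. The arrays of the stages do not overlap in any panel; Acadsb, Acad8, Bdh1 and Oxct1 are higher in lactation and the others lower.

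Acyl-CoA dehydrogenases, the flavoenzymes of the opening step of each cycle, changed in both directions. Of 9 family members 5 fell and 3 rose. The 4 named for straight chains, Acadvl, Acadl, Acadm and Acads, fell, as did Acad9, while Acadsb and Acad8, which act on branched chains derived from isoleucine and valine, rose. Acadl, the long-chain enzyme, fell more than any other member. Its log2 values were 6.33, 5.39, 6.24 and 6.36 in lactation, against 8.47, 8.27, 8.23 and 8.24 in pregnancy. Lactation replicate 2 was far below the other lactation arrays, which themselves lay almost 2 log2 units below pregnancy. The log2 difference of -2.22 (SE 0.2, limma adjusted p = 5.87e-05) was a level 4.66-fold lower in lactation. Without lactation replicate 2 it was -1.99.

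Acad9, which oxidises long chains and also helps assemble respiratory complex I, was nearly level across the lactation arrays, at 7.64, 7.71, 7.62 and 7.59, against 9.02, 8.70, 8.92 and 8.81 in pregnancy. Its log2 difference was -1.22 (SE 0.0873, limma adjusted p = 1.52e-05). Acadvl, the very-long-chain enzyme bound to the inner membrane, had 6.84, 6.61, 6.80 and 6.84 in lactation against 7.36, 7.33, 7.42 and 7.46 in pregnancy. The pregnancy arrays were nearly level and the lactation arrays all below them, with a log2 difference of -0.62 (limma adjusted p = 0.000825). Acadm, the medium-chain enzyme, had 7.93, 7.85, 8.03 and 8.14 in lactation against 8.76, 8.55, 8.71 and 8.63 in pregnancy, a log2 difference of -0.67 (limma adjusted p = 0.000575). Acads, the short-chain enzyme, had 7.75, 7.74, 7.44 and 7.38 in lactation against 8.73, 8.39, 8.38 and 8.07 in pregnancy. It varied more within each stage than Acadm, and its log2 difference was -0.81 (SE 0.146, limma adjusted p = 0.00304).

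Acadsb, the short and branched-chain enzyme of isoleucine breakdown, went the other way. Its log2 values were 9.33, 9.58, 9.49 and 9.39 in lactation, against 7.93, 8.06, 8.12 and 8.02 in pregnancy. The spread within each stage was small beside the distance between them, and the log2 difference was 1.42 (SE 0.0804, limma adjusted p = 4.42e-06), a 2.67-fold rise. Acad8, the isobutyryl-CoA dehydrogenase of valine breakdown, had 7.14, 7.28, 7.16 and 7.33 in lactation against 6.69, 6.69, 6.72 and 6.87 in pregnancy, and rose by 0.49 on the log2 scale (limma adjusted p = 0.00334). Acad10 was dim, at 5.17 to 5.41 in lactation and 4.80 to 5 in pregnancy, and rose by 0.33 (limma adjusted p = 0.0182). Acad11 overlapped between the stages, at 7.04 to 7.39 in lactation and 7.07 to 7.49 in pregnancy, with a log2 difference of -0.02 (95% interval -0.28 to 0.25).

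Promoter sequences of 3 of these dehydrogenases are shown because Acadl fell most, Acadsb rose most within the family, and Acadm carries a nuclear receptor half-site. RefSeq (GRCm38.p6) held promoter windows of 300 bases, from 250 before to 50 after the gene start, for 24 of the 30 members, in 25 windows; Cpt1b, Crat, Acad9, Acaa2, Decr1 and Acat1 had no window. Each was searched on both strands for a direct repeat of AGGTCA with any 1 base between the copies, known to bind the PPAR receptors that govern oxidation genes, for TCAAGGTCA, the response element of the estrogen-related receptors, for AAGGTCA, an extended half-site contained in the preceding motif, and for GGGCGG, the GC box bound by Sp factors. Capitals mark every match, which is a description of letters and not a proven site.
Acadl promoter, chr1:66863260-66863559, minus strand: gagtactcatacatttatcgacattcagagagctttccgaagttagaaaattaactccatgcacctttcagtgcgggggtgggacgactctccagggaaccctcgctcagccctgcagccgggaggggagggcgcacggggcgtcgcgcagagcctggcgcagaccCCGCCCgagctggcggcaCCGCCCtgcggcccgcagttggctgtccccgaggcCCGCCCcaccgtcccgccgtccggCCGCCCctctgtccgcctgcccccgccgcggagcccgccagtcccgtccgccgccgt
Acadm promoter, chr3:153944594-153944893, minus strand: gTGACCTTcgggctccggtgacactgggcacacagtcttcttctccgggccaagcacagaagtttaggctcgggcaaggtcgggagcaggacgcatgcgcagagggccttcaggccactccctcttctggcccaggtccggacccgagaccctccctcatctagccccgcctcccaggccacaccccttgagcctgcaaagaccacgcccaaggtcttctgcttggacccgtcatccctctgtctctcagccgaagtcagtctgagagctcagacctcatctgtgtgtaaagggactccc
Acadsb promoter, chr7:131410351-131410650, plus strand: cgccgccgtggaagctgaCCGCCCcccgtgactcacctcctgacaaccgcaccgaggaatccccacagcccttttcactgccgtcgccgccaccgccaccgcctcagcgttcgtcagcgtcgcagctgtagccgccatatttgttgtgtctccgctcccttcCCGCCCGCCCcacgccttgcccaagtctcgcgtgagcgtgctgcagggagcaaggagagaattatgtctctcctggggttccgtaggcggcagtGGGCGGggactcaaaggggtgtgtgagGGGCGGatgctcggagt
The Acadl window held 4 GC boxes and the Acadsb window 5, of which 2 overlap, so the member that fell most and the family member that rose most both carried them. The Acadm window held 1 AAGGTCA match, on the opposite strand at its distal end, and no GC box. Across the members GGGCGG was found in 19 of 25 windows, from 19 of 24 genes, beside 35.7% of all 32851 promoter windows. AAGGTCA was found in the Acadm window alone, beside 4.72% of all windows. The windows were not matched for base composition, so no excess of GC boxes is read from these shares. The direct repeat and TCAAGGTCA were in none of the 25 windows, and in 0.0396% and 0.423% of all windows.

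The middle steps of the cycle mostly fell. Of 5 genes, 4 fell and 1 rose, with a median log2 difference of -0.76. Hadha and Hadhb encode the alpha and beta subunits of the mitochondrial trifunctional protein, which carries out hydration, dehydrogenation and thiolysis of long chains. Hadha had log2 values of 8.99, 8.76, 8.81 and 8.94 in lactation, against 10.07, 9.71, 9.89 and 9.97 in pregnancy (log2 difference -1.03, SE 0.0904, limma adjusted p = 5.08e-05). Hadhb had 7.91, 7.92, 7.87 and 8.02 in lactation, against 8.91, 8.79, 8.91 and 8.82 in pregnancy (log2 difference -0.93, SE 0.0735, limma adjusted p = 2.82e-05). The subunits thus fell by nearly the same amount, 2.05-fold and 1.90-fold, with intervals of the log2 difference of -1.23 to -0.83 and -1.09 to -0.76. The second Hadhb probe set had log2 values of 7.84, 7.89, 7.81 and 7.98 in lactation and 8.88, 8.72, 8.88 and 8.77 in pregnancy, close to the brighter probe set on every array.

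In RefSeq the 2 trifunctional protein genes lie head to head on chromosome 5 (GRCm38.p6), with starts 273 bases apart, Hadha on the minus strand from 30154980 and Hadhb on the plus strand from 30155253. Their promoter windows share 228 bases. The Hadhb window is shown because it holds most of the stretch between the starts of these genes, which fell together, with capitals marking GC boxes.
Hadhb promoter, chr5:30155003-30155302, plus strand: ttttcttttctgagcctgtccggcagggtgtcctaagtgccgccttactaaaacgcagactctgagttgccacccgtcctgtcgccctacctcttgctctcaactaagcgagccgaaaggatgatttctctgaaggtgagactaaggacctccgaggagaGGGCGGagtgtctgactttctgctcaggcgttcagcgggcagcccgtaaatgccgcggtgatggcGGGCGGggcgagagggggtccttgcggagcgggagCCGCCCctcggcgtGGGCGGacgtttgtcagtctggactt
It held 4 matches to GGGCGG on either strand and none to the other motifs.

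Acaa2, the thiolase for medium chains, fell to 8.42, 8.33, 8.4 and 8.48 in lactation, against 9.32, 9.01, 9.14 and 9.22 in pregnancy, a log2 difference of -0.76 (limma adjusted p = 0.00019). Hadh, the hydroxyacyl-CoA dehydrogenase for shorter chains, fell by less. It had 9.45, 9.49, 9.58 and 9.44 in lactation against 9.79, 9.82, 9.86 and 9.88 in pregnancy, and its log2 difference of -0.35 (limma adjusted p = 0.0024) lost the call with arrays centred on the reference genes (adjusted p = 0.0754). Echs1, the short-chain enoyl-CoA hydratase, which also acts in valine breakdown, rose. Its log2 values were 7.89, 8.01, 7.75 and 7.96 in lactation, against 7.43, 7.32, 7.27 and 7.47 in pregnancy. Every lactation array was above every pregnancy array, with a log2 difference of 0.53 (SE 0.0905, limma adjusted p = 0.0023).

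Of the 3 auxiliary enzymes that prepare unsaturated fatty acids for the cycle, 2 fell. Eci2, an enoyl-CoA isomerase found in mitochondria and peroxisomes, had log2 values of 6.41, 6.18, 6.63 and 6.74 in lactation, against 7.87, 7.52, 7.79 and 7.73 in pregnancy. Its log2 difference was -1.24 (SE 0.134, limma adjusted p = 0.000187), a level 2.36-fold lower. Decr1, the mitochondrial dienoyl-CoA reductase, had 6.71, 6.39, 6.28 and 6.36 in lactation against 7.46, 7.34, 7.43 and 7.32 in pregnancy, a log2 difference of -0.95 (SE 0.107, limma adjusted p = 0.000225). Eci1, the other mitochondrial isomerase, differed from both: it ranged from 7.52 to 7.76 in lactation and from 7.59 to 7.83 in pregnancy, and the 95% interval of its log2 difference ran from -0.23 to 0.18.

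The electron transfer genes, which pass electrons from the dehydrogenases to ubiquinone, fell in 2 of 3 cases. Etfdh, the ubiquinone oxidoreductase of the inner membrane, had log2 values of 7.36, 7.48, 7.26 and 7.42 in lactation, against 8.28, 8.17, 8.25 and 8.17 in pregnancy (log2 difference -0.84, SE 0.0813, limma adjusted p = 9.75e-05). Etfb, the beta subunit of the electron transfer flavoprotein, had 9.49, 9.30, 9.27 and 9.39 in lactation against 9.88, 9.79, 9.80 and 9.76 in pregnancy, and fell by 0.45 (limma adjusted p = 0.00126). Etfa, the alpha subunit of the same flavoprotein, did not pass. It had 7.93, 8.01, 7.71 and 7.96 in lactation against 8.18, 8.08, 8.08 and 8.06 in pregnancy, groups that did not overlap but nearly met at the closest arrays (log2 difference -0.20, limma adjusted p = 0.121).

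**Figure D3:**
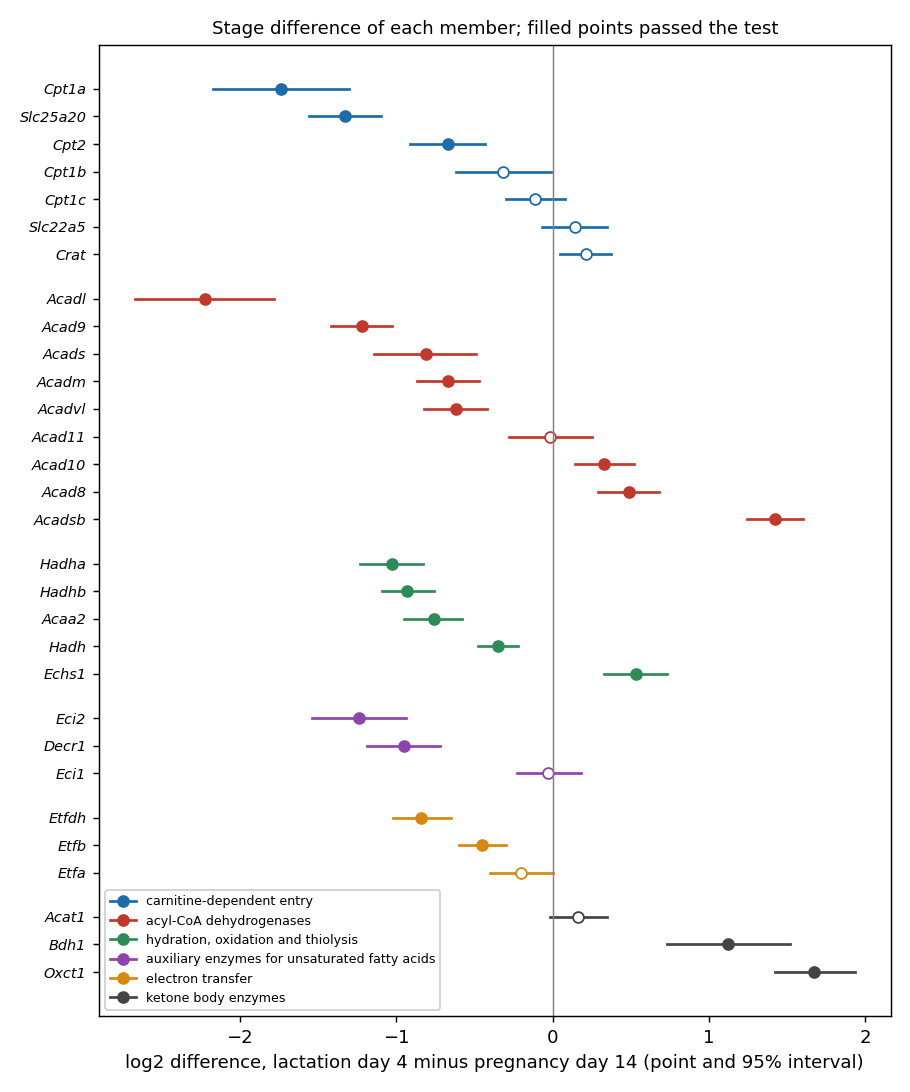
Log2 difference of each member, lactation day 4 minus pregnancy day 14 (x axis), with its 95% interval, coloured by role and ordered within each role; filled points passed the test and open points did not. Acadl, at -2.22, is farthest left and Oxct1, at 1.67, farthest right.

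Ketone body enzymes rose in 2 of 3 cases and none fell. Oxct1 encodes the CoA transferase that activates acetoacetate, the committed step of ketone body use outside the liver. Its log2 values were 9.15, 9.44, 9.26 and 9.54 in lactation, against 7.64, 7.93, 7.52 and 7.62 in pregnancy. All lactation arrays were more than a log2 unit above all pregnancy arrays, and the log2 difference was 1.67 (SE 0.115, limma adjusted p = 1.25e-05), a 3.19-fold rise. Bdh1, which converts beta-hydroxybutyrate to acetoacetate and back, had 8.70, 7.84, 8.32 and 8.45 in lactation against 7.32, 7.29, 7.32 and 6.88 in pregnancy. It varied more than Oxct1, with lactation replicate 2 and pregnancy replicate 4 low within their stages, and its log2 difference was 1.12 (SE 0.177, limma adjusted p = 0.00154), a 2.18-fold rise. Acat1, the mitochondrial thiolase that splits acetoacetyl-CoA and also acts in isoleucine breakdown, did not pass. It had 9.36, 9.27, 9 and 9.30 in lactation against 9.08, 9.04, 9.08 and 9.07 in pregnancy, where only lactation replicate 3 fell below the pregnancy arrays (log2 difference 0.16, 95% interval -0.02 to 0.35). It passed as higher under 4 of 20 alternatives, among them the fit without that array, at 0.24 (limma adjusted p = 0.0262).

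The Oxct1 window is shown because this gene rose most of all members.
Oxct1 promoter, chr15:4026178-4026477, plus strand: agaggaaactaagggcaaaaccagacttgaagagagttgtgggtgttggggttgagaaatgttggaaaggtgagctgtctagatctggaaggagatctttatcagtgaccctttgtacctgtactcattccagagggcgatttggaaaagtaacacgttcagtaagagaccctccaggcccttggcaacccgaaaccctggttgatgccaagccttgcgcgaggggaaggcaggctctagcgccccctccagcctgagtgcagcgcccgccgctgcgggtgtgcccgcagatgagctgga
It held no match to any of the 4 motifs, and so carries no capitals.

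Neighbouring genes of the pathway were described from lists by function, chosen with earlier results of these data known. Counts in this and the later lists are to be set beside 16.1% of all genes lower and 9.73% higher. Without the dimmest 40% of genes these shares were 28.1% and 12.9%. Counts near these shares are not read as results about a list. In the list of malonyl-CoA and AMPK control of entry, 3 of 11 rose and 3 fell, with a median log2 difference of 0.12. Acacb, the acetyl-CoA carboxylase whose malonyl-CoA is made at the mitochondrial surface, had 9.45, 9.64, 10.06 and 9.97 in lactation against 6.80, 7.15, 7.23 and 7.64 in pregnancy. Its rise of 2.57 on the log2 scale (SE 0.184, limma adjusted p = 1.55e-05), opposite in sign to the change of Cpt1a, was 5.94-fold. Acaca, the cytosolic carboxylase of fat synthesis, rose by 1.28 (limma adjusted p = 0.000307). The AMPK catalytic subunits moved in opposite directions, Prkaa2 higher by 1.83 and Prkaa1 lower by 0.80 on the log2 scale (limma adjusted p = 3.64e-07 and 0.0053). Mlycd, which breaks malonyl-CoA down, fell by 0.27 and the AMPK subunit Prkag1 by 0.28, calls that ended under 14 and 12 of 20 alternatives.

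Among 18 transcriptional regulators of oxidation 4 fell and 3 rose, with a median of 0.05. Ppargc1a, the coactivator of mitochondrial and oxidation genes, was dim, at 4.69, 4.70, 4.50 and 4.18 in lactation against 5.41, 4.81, 5.39 and 5.51 in pregnancy, and fell by 0.76 on the log2 scale (SE 0.167, limma adjusted p = 0.00858). Its closest arrays, pregnancy replicate 2 and the brightest lactation arrays, nearly met. Ppara, the fatty acid receptor that drives oxidation genes in liver, rose, at 5.66, 6.12, 5.91 and 5.71 in lactation against 5.14, 5.39, 5.26 and 5.35 in pregnancy (log2 difference 0.56, limma adjusted p = 0.00632). Klf15, a nutrient-responsive factor, rose by 1.19 (adjusted p = 0.000464) and Esrrg, an estrogen-related receptor, by 0.50, which 7 of 20 alternatives did not call. Rxrb, a partner of PPAR receptors, fell by 0.41 (limma adjusted p = 0.00602), which 2 of 20 alternatives did not call.

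Other genes known as PPAR targets went both ways, 5 lower and 3 higher of 15, with a median of -0.07. Angptl4, an inhibitor of lipoprotein lipase, fell by 1.84 on the log2 scale (limma adjusted p = 0.00189). Acot2, a mitochondrial acyl-CoA thioesterase, had 6.95, 7.33, 7.13 and 6.73 in lactation against 9.07, 8.23, 8.70 and 8.42 in pregnancy, and fell by 1.57 (adjusted p = 0.000314). Among those higher, Fabp3, the fatty acid binding protein of muscle and lactating mammary gland, rose by 0.84 (adjusted p = 0.000105). Cyp4a10, a fatty acid hydroxylase, and Creb3l3, a membrane-bound transcription factor, rose by 0.66 and 0.28 from low levels, calls that ended under 3 and 4 of 19 alternatives.

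In the list of ketone body synthesis and monocarboxylate carriers 1 of 12 rose and 1 fell. Aacs, the cytosolic acetoacetyl-CoA synthetase that feeds ketone bodies into lipid synthesis, had 9.14, 9.22, 9.23 and 8.78 in lactation against 7.50, 7.91, 7.64 and 7.35 in pregnancy, and rose by 1.49 on the log2 scale (SE 0.139, limma adjusted p = 7.25e-05). Aacs thus changed in the same direction as Oxct1 and Bdh1. Of 7 measured genes of carnitine synthesis and uptake 2 rose and 1 fell. Bbox1, the last enzyme of carnitine synthesis, rose by 1.94, with 5.44, 6.77, 6.38 and 6.24 in lactation against 4.29, 4.40, 4.17 and 4.20 in pregnancy (limma adjusted p = 0.000311). Its pregnancy arrays were dim, so the size of the rise of Bbox1 is uncertain. Slc6a14, an amino acid carrier that can also carry carnitine, was called lower (limma adjusted p = 0.00371), but it is among the dimmest 40% of genes, at 3.51 to 3.64 in lactation and 3.98 to 5.24 in pregnancy, so the size of its fall is not given. Slc22a16, a carnitine carrier, rose by 0.24 from a low level, which 8 of 19 alternatives did not call.

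Branched-chain and odd-chain acyl-CoA breakdown, the pathway in which Acadsb and Acad8 act, rose in 11 of 18 measured genes and fell in 1, with a median log2 difference of 0.36. Over all genes 9.73% were higher, or 12.9% with the dimmest 40% left out. After centring on the brighter 60% of genes, the mitochondrial list or the reference genes, 13, 14 and 15 of the 18 were higher, beside 24.3%, 33.1% and 49.8% of all genes. Ivd, the isovaleryl-CoA dehydrogenase of leucine breakdown and another enzyme of the acyl-CoA dehydrogenase family, had 8.89, 8.80, 8.90 and 8.77 in lactation against 7.88, 7.71, 7.78 and 7.77 in pregnancy. It rose by 1.05 on the log2 scale (SE 0.0753, limma adjusted p = 1.52e-05). Ppm1k, the phosphatase that activates the branched-chain ketoacid dehydrogenase complex, rose by 1.18 and Dbt, a subunit of that complex, by 0.93 (limma adjusted p = 0.000569 and 0.000401). Hsd17b10, a hydroxyacyl-CoA dehydrogenase of isoleucine breakdown, fell by 0.45 (limma adjusted p = 0.00261).

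**Figure D4:**
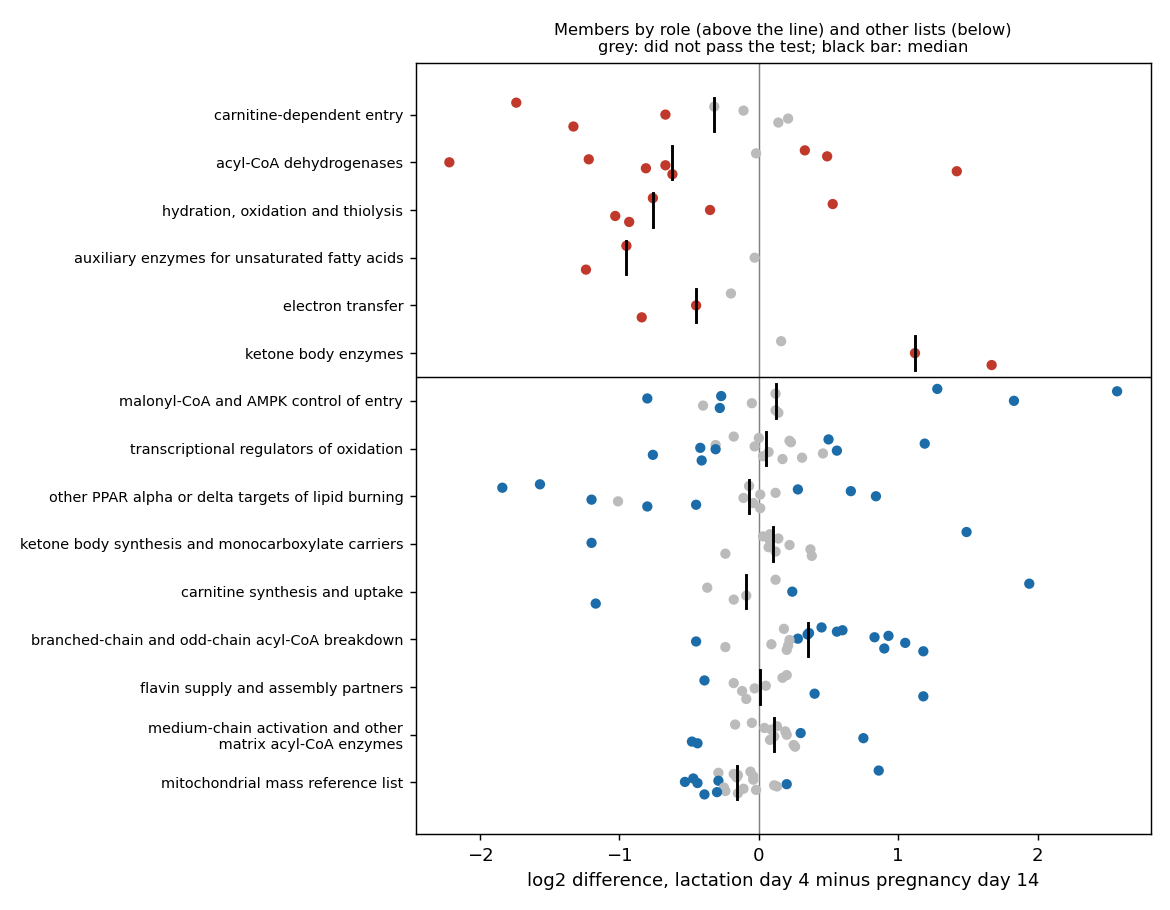
Log2 difference, lactation day 4 minus pregnancy day 14 (x axis), of each gene of the 6 member groups (above the line) and of 9 other lists (below it); coloured points passed the test, grey points did not, and black bars are medians. The bars of 5 member groups lie left of zero and that of the ketone body enzymes right of it.

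General mitochondrial genes were also described. In a list of 22 genes of mitochondrial mass, such as outer membrane channels, import receptors and chaperones, 6 were lower and 2 higher, with a median log2 difference of -0.16, beside -0.40 for the oxidation and ketone body members; the difference between these medians was not tested. Phb2, a prohibitin, fell by 0.53, Mfn2, a fusion protein, by 0.47 and Tfam, of mitochondrial DNA maintenance, by 0.44, the last not holding under 1 of 20 alternatives. Cs, citrate synthase, rose by 0.86, with 10.75, 10.94, 10.84 and 10.91 in lactation against 9.97, 10.01, 9.91 and 10.10 in pregnancy (limma adjusted p = 1.67e-05), and Timm23, an import channel, by 0.20, which 8 of 20 did not call. With arrays centred on this list, an alternative chosen after seeing the data, 16 members were lower and 8 higher.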

How the data were processed

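RNA from 4 lactation day 4 and 4 pregnancy day 14 samples was hybridised to Affymetrix whole-transcript arrays, per the labels' protocols. For each probe set the authors deposited 1 log2 value per array. The tools, per the submitters' processing notes, were GCRMA and Partek. Their versions and roles, the annotation release and the build were not given in the sources used here. GC-RMA subtracts a background that depends on probe sequence, brings arrays to 1 distribution and combines the probes of a set, so differences in total RNA per cell are not measured, and values near either end of the range (2.04 to 13.03) can be compressed. A second deposited table held the same log2 values (largest difference 0). Precision is limited by the number of arrays, with a median half-width of the 95% interval of a log2 difference of 0.211.

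Of 35556 probe sets 26836 carried a symbol. Symbols were updated through RefSeq (GRCm38.p6), matching 22040 by accession, 3611 by symbol and 143 by synonym, and each gene was read from its brightest probe set, by the mean of the 8 arrays, giving 25050 genes. Stages were compared with limma 3.58.1 (R 4.3.3), with a mean-variance trend, and p-values were adjusted by Benjamini-Hochberg over all genes at a threshold of 0.05. Levels of different probe sets were not compared. Members and lists were chosen with earlier results of these data known, so no p adjusted over a list is given. Named genes were all members, Epcam, Krt8, Krt18, Csn2, Ppara, Ppargc1a, Acaca and Acacb, and up to 3 called genes per direction from each pathway or reference list; some of these are not reported here. Listed genes without a probe set were Tmlhe, Mut, Hsd17b8, Flad1, Tusc5 and Ahsp.

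The stage comparison was tested on simulated data of 25050 genes, where 55.22% of 67 genes shifted by 0.5, 91.04% of 67 shifted by 1 and 96.97% of 66 shifted by 2 log2 units were recovered, with 5 false calls among 167. Few genes were shifted there and the noise was independent between genes, whereas 6463 genes were called in the data. These rates therefore may not hold for the real comparison. Alternatives covered scaling, dim genes, probe sets, variance model, array weights, omitted arrays and a replicate block.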

Additional observations from a re-analysis of the deposited data

Results flagged for a closer look

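In 60 sets of 4 arrays, 30 members at 2 stages, the highest and lowest array were compared with the others of its stage. In 3 sets, on 2 arrays, a value lay far from the rest. That is about as many as chance gives, at 1 in 20 sets, and the 3 are not read as more than that. Lactation day 4 replicate 2 was low for Acadl, at 5.39 against 6.24 to 6.36 on the other lactation arrays (a gap of 0.878 of the range), and the log2 difference of Acadl without it was -1.99 (limma adjusted p = 5.88e-06). The same array was low for Acadvl, at 6.61 (0.856 of the range), where the log2 difference without it was -0.57 (adjusted p = 0.00197). Pregnancy day 14 replicate 4 was low for Bdh1, at 6.88 against 7.29 to 7.32 (0.923 of the range), and without it Bdh1 was higher in lactation by 1.01 (adjusted p = 0.004).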

How the results depend on the processing

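Of the 22 members that passed the test, 21 kept direction and call under all 20 alternatives, the exception being Hadh with arrays centred on the reference genes (adjusted p = 0.0754). Members lower in lactation numbered 16 under every alternative except that centring (15), and members higher ranged from 6 to 9. Leaving out each array in turn gave 16 lower members, 6 to 7 higher members, medians of -0.420 to -0.389 and 4415 (without pregnancy replicate 3) to 6426 genes called. Centring on the reference genes or on the mitochondrial mass list called 14642 and 10828 genes in place of 6463 and moved the members' median to -0.195 and -0.27. The median of all genes was then 0.216 and 0.142, and the members' median minus it was -0.412 each time, as such a shift must leave it. With the dimmest 40% of genes left out, the members' median minus that of the remaining genes was smaller in size, at -0.293. Signs turned only in genes that had not passed: Acad11 (0.13 with quantile normalization, 0.03 with median centring, 0.19 with reference genes, 0.03 with array weights, 0.07 and 0.11 with centring on brighter genes and the mitochondrial list, and -0.09 to 0.06 as single arrays were left out, above 0 without lactation replicate 1 at 0.06 and pregnancy replicate 3 or 4 at 0.01 or 0.05), Eci1 (0.09, 0.02, 0.17, 0.06 and 0.10 under the same 5 scalings, and -0.06 to 0.02 as single arrays were left out, with 0.02 without lactation replicate 3 or pregnancy replicate 1), Cpt1c (0.09 and 0.02) and Epcam (0.08 and 0.01) with reference genes and the mitochondrial list, and Etfa (0.00217 with reference genes). With the replicate number as a block 16 members were lower and 6 higher and 6465 genes were called; same-numbered deviations correlated at 0.242, -0.164, 0.151 and 0.178 for numbers 1 to 4, so not every pair was above 0.1, not every sample correlated best with its own number, and the numbers were not treated as pairs. The 2 centrings on brighter genes and on the mitochondrial list were chosen after seeing the data. Dim members such as Cpt1b and Acad10 are limited by their signal over background.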

Other observations

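Genes that supply the flavin cofactor of the dehydrogenases and their assembly partners were lower in 1 and higher in 2 of 10 measured, with a median log2 difference of 0.01. Slc52a3, a riboflavin transporter, averaged 6.83 ± 0.09 in lactation and 5.65 ± 0.09 in pregnancy (log2 value, SD, n = 4 each), a rise of 1.18 (limma adjusted p = 1.98e-05). Slc52a2, another riboflavin transporter, rose by 0.40 and Etfbkmt, which methylates the electron transfer flavoprotein, fell by 0.39, calls that ended under 3 of 20 and 6 of 19 alternatives. Among 15 other matrix acyl-CoA enzymes 2 rose and 2 fell, near the shares of all genes (9.73% higher and 16.1% lower). Ech1, a dienoyl-CoA isomerase, fell by 0.48 (limma adjusted p = 0.00243) and Echdc2 by 0.44, while Acss1, the mitochondrial acetyl-CoA synthetase, rose by 0.75 and Acsm3 by 0.30; the calls of the last 3 ended under 9 of 20, 6 of 20 and 4 of 19 alternatives. Among 12 reference genes used for centring 6 fell, with Polr2a lower by 0.60, Hprt by 0.44 and Ywhaz by 0.43 on the log2 scale.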
